A study of Mus musculus with 24 samples.

Results

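Astrocytes, the glia that couple to each other and to blood vessels, were followed through 10 of the genes they express, *Gjb6*, *Gja1*, *Gfap*, *Aqp4*, *Aldh1l1*, *Slc1a2*, *Slc1a3*, *S100b*, *Sox9* and *Fgfr3*. Members were found by gene symbol, and each of the 10 matched 1 of the 30270 genes in the tables. The mRNA came from bilateral micropunches of the nucleus accumbens (NAc) and the ventral tegmental area (VTA) of 12 C57BL/6 mice, frozen 90 min after PBS or morphine (5 mg/kg) was injected into the peritoneum. Wild-type mice and *Vdr*-/- mice, which carry a whole-body deletion of the vitamin D receptor, received either injection, so that 24 libraries fell into 8 groups of 3 mice. The *Vdr*-/- mice were kept on a diet enriched in calcium and lactose, and an effect of that diet and an effect of the genotype cannot be told apart. Ages were not given in the sources used here for these mice. Wild-type mice given PBS are numbered 1, 2 and 3, *Vdr*-/- mice given PBS 7, 8 and 9, wild-type mice given morphine 1.0, 1.1 and 1.2, and *Vdr*-/- mice given morphine 2.0, 2.1 and 2.2, with the same mice in both regions.

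Reads on genes numbered 9328726 to 24509922 per NAc library and 12421680 to 30184426 per VTA library, and each member held at least 206 reads in every library. *Vdr* itself held 0 to 17 reads in the 12 *Vdr*-/- libraries (median 6) and 1 to 17 in the 12 wild-type libraries (median 5.5), too few to check the genotype, which was therefore taken from the labels. *Drd1*, a dopamine receptor of striatal neurons, lay at 116 to 229 CPM (reads per 1000000 reads on genes) in the NAc and at 2.47 to 6.53 in the VTA. Its NAc median was 186 in the 6 PBS libraries and 126 in the 6 morphine libraries, with overlap. The other NAc markers did not overlap between the injections there. *Drd2* ran from 141 to 211 CPM after PBS and from 94.6 to 125 after morphine. *Adora2a* ran from 129 to 188 and then from 67.5 to 103, and *Ppp1r1b* from 728 to 963 and then from 414 to 558. *Slc6a3*, the dopamine transporter that defines dopamine neurons, lay at 0.530 to 4.44 CPM in the NAc and at 14.1 to 1144 in the VTA, where the 6 PBS libraries had a median of 852 and the 6 morphine libraries a median of 160. These markers of each region were lower in median after morphine, and their part in the NAc and VTA results was not tested. The NAc library of wild-type PBS mouse 2 stood apart. Its genes deviated from their group means with an SD of 0.269 on the log2 scale, against at most 0.183 in the other 23 libraries. Some NAc values that it bears on are also given without it. The NAc means per kilobase, member values between genotypes after PBS, genotype-by-injection values and marker correlations are given only with it.

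Astrocytes are joined into networks by gap junctions built mainly of connexin 43, encoded by *Gja1*, and connexin 30, encoded by *Gjb6*. Their endfeet on vessels are rich in the water channel aquaporin 4 (*Aqp4*), their processes hold the intermediate filament protein GFAP, and their transporters GLT-1 (*Slc1a2*) and GLAST (*Slc1a3*) clear synaptic glutamate. *Sox9* is a transcription factor of the astrocyte lineage, *Fgfr3* a growth factor receptor, *Aldh1l1* a folate enzyme widely used as a pan-astrocyte marker, and *S100b* a calcium-binding protein that myelinating oligodendrocytes also make. In pieces of tissue such as these, fewer cells of a type and less RNA per cell cannot be told apart.

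The promoters of the genes that are later compared as pairs, the connexins *Gjb6* and *Gja1* and the markers *S100b* and *Aldh1l1*, are shown from 250 bases before to 50 bases after the start of transcription, read from RefSeq on GRCm38.p6. *Gjb6* is at chr14:57133562-57133861 (minus strand), *Gja1* at chr10:56377050-56377349 (plus strand), *S100b* at chr10:76253586-76253885 (plus strand) and *Aldh1l1* at chr6:90550543-90550842 (plus strand). Capitals mark TTGGC, a half-site of nuclear factor I, a family of astrocyte transcription factors, and AGGTCA or AGTTCA, the half-sites of vitamin D response elements, on either strand.
Gjb6: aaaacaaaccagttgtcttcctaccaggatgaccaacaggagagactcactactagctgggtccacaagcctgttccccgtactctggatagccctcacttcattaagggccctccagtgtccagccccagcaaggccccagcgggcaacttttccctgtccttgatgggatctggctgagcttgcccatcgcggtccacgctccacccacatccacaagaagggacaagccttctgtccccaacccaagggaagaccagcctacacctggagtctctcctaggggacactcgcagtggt
Gja1: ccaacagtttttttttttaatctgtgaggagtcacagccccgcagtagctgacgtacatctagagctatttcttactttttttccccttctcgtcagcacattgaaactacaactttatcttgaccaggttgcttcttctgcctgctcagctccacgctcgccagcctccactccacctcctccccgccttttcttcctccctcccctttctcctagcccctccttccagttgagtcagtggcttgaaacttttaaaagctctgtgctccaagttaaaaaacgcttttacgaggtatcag
S100b: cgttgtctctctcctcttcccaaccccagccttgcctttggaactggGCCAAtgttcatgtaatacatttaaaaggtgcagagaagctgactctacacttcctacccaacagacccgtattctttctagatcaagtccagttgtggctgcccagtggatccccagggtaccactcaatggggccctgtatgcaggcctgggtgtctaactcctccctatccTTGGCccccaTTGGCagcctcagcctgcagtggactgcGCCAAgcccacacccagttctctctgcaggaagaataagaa
Aldh1l1: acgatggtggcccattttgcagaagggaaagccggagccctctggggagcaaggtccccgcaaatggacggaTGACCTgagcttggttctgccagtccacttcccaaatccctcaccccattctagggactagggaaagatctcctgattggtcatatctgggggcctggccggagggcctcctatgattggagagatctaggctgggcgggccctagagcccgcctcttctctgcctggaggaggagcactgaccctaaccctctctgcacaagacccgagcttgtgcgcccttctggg
*S100b* held 4 matches to TTGGC, and *Aldh1l1* held 1 match to AGGTCA. Neither connexin promoter held any of the 3 motifs, which overlapped in no match shown. Of 32544 promoters of this length in the RefSeq table, 46.9% held TTGGC, 16.2% AGGTCA and 13.99% AGTTCA. Promoters were searched for 8 members, with *Fgfr3* given 2 starts, and not for *Aqp4* or *Sox9*. The promoters of *Gfap* and *Slc1a2* also held 1 match to AGGTCA each. These matches are letters in a window and were not tested for binding.

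Levels between genes are compared here as CPM per kilobase of exon, averaged over the 12 libraries of a region. *Slc1a2* stood far above the other members in both regions, at 273 ± 40.7 CPM per kilobase in the NAc and 192 ± 14.7 in the VTA (SD, n = 12). In the NAc *Slc1a3* came next at 67.3 ± 7.18 and *S100b* after it at 38.4 ± 4.37. *Gja1*, *Fgfr3*, *Gjb6* and *Aqp4* followed within their spread of each other, between 15.8 ± 2.07 for *Gja1* and 13.3 ± 3.30 for *Aqp4*. *Gfap* at 9.94 ± 3.94 and *Aldh1l1* at 9.93 ± 0.802 did not differ beyond their spread, and *Sox9* was lowest at 5.42 ± 0.844. The order was different in the VTA. There *S100b* was second at 103 ± 32.1 and *Slc1a3* next at 49.3 ± 8.11, *Gfap* reached 38.7 ± 23.4 and *Aqp4* 35.6 ± 11.2, *Gjb6* at 28.9 ± 3.93 and *Fgfr3* at 28.5 ± 2.64 were alike within their spread, and *Gja1* was at 23.5 ± 2.89. *Aldh1l1* at 15.2 ± 1.49 and *Sox9* at 5.77 ± 1.01 came last again. These means and SDs pool the injections and genotypes, and the order was not the same in each group. In the VTA of wild-type PBS mice *Gfap* at 58.5 ± 12.5 and *Aqp4* at 52.1 ± 4.79 stood above *Slc1a3* at 40.1 ± 2.35 (SD, n = 3). In each other VTA group the mean of *Slc1a3* was above both.

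Most of these genes had lower levels in the NAc than in the VTA of the same mouse. Of the 10 members, 9 passed the test of NAc against VTA, which used the recovered reads of all 24 libraries with mouse as a block and an adjusted p threshold of 0.05. The background was as broad, since 71.5% of the 16147 genes tested were called, so the count itself says little about astrocyte genes. The 2 glutamate transporters were higher in the NAc, *Slc1a3* by a log2 difference of 0.52 ± 0.06 (SE, adjusted p = 1.29e-06) and *Slc1a2* by 0.55 ± 0.09 (adjusted p = 4.28e-05). *Slc1a3* was higher in 12 of 12 mice and *Slc1a2* in 11 of 12, the exception being wild-type PBS mouse 2, whose NAc library stood apart. Without that mouse the log2 difference of *Slc1a2* was 0.63 (SE 0.05, adjusted p = 1.00e-07). The other 7 were lower in the NAc. *S100b* fell by 1.30 on the log2 scale (SE 0.09, adjusted p = 7.39e-09) and *Fgfr3* by 0.95 (SE 0.05, adjusted p = 3.47e-10), both in 12 of 12 mice. *Aqp4* was lower by a log2 difference of -1.34 ± 0.15 (adjusted p = 1.53e-06), *Gjb6* by -1.09 ± 0.11 (adjusted p = 3.24e-07), *Aldh1l1* by -0.55 ± 0.05 (adjusted p = 6.2e-08) and *Gja1* by -0.51 ± 0.07 (adjusted p = 6.85e-06), again in all 12 mice. *Gfap* had the widest scatter, with a log2 difference of -1.66 ± 0.36 (adjusted p = 0.000801) and the same direction in 10 of 12 mice. *Sox9* had a log2 difference of -0.02 ± 0.05 (adjusted p = 0.709) and was lower in 7 mice and higher in 5. The median log2 difference was -0.75 over the members and -0.02 over all genes tested. No deposited table holds both regions, so these values rest on reads recovered from separate tables and scaled together.

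**Figure D1:**
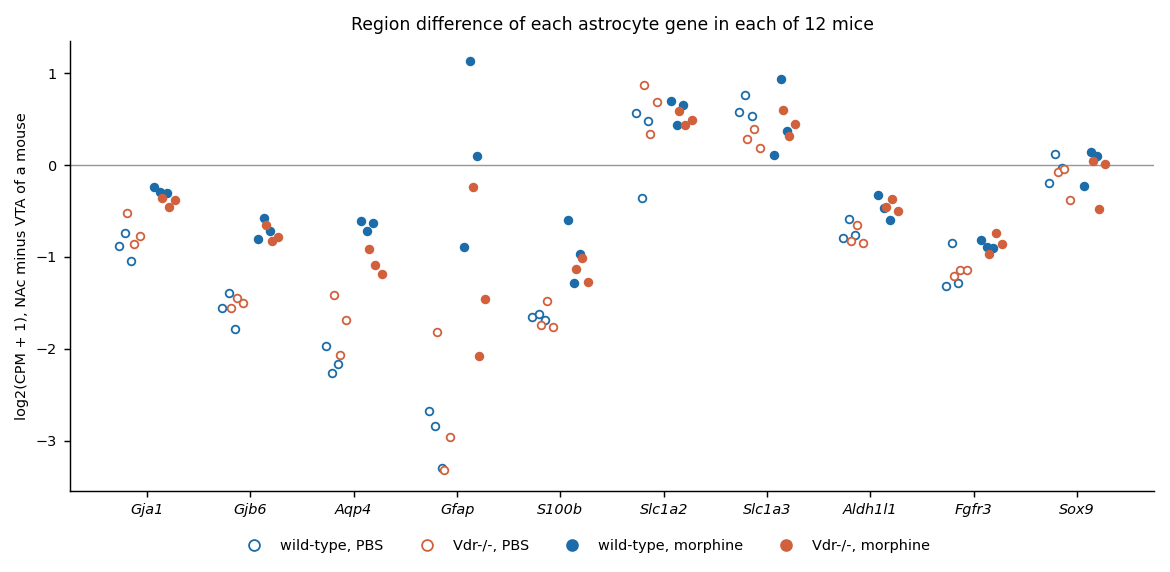
Difference of log2(CPM + 1) between the NAc and the VTA of each of the 12 mice (y axis) for the 10 astrocyte genes (x axis); colour gives the genotype, open points PBS and filled points morphine. *Slc1a2* and *Slc1a3* sit above 0 in nearly all mice, *Sox9* around 0 and the others below it, with the morphine mice nearer to 0 than the PBS mice for *Gjb6*, *Aqp4*, *S100b* and *Gja1*.

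Within the mice, the size of the region difference varied with the injection. For *Gjb6* the NAc minus VTA difference of log2(CPM + 1) ran from -1.78 to -1.39 in the 6 mice given PBS and from -0.83 to -0.58 in the 6 given morphine. For *Aqp4* it ran from -2.27 to -1.41 after PBS and from -1.19 to -0.60 after morphine, and for *S100b* from -1.76 to -1.48 and from -1.28 to -0.60. For *Gja1* the ranges were -1.04 to -0.52 and -0.45 to -0.23. The ranges of the injections did not overlap for these 4 of the 10 members, against a background of 5.85% of all 16147 genes tested. They overlapped for the other 6, among them *Gfap*, with -3.32 to -1.82 after PBS and -2.08 to 1.13 after morphine.

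The comparison of morphine with PBS asks how each gene differed between the injections within a region and genotype. Its fold changes and adjusted p-values come from limma on log2(value + 1) of the deposited normalized counts, while values per mouse are given as CPM, in the order of the mouse numbers above. In all of these tests the p-values measure the spread between these mice. The injections also differ in how their libraries are named. Some index sequences, the short tags that mark a library, recur between PBS and morphine libraries but none within either. Whether the libraries were made or sequenced in separate sets is not given, and such sets and the injection cannot be told apart.

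*Gjb6* was the member that rose most evenly with morphine in the NAc. In wild-type mice it lay at 23.3, 23.1 and 17.8 CPM after PBS and at 47.9, 47.8 and 46.3 after morphine. In *Vdr*-/- mice it lay at 23.2, 29.8 and 26.3 CPM after PBS and at 52.2, 49.0 and 57.1 after morphine. All 6 morphine libraries lay above all 6 PBS libraries, and the ratio of the group means was 2.21 in wild-type and 2.00 in *Vdr*-/- mice. The log2 fold change was 1.13 ± 0.11 in wild-type mice (SE, adjusted p = 0.0165) and 0.96 ± 0.09 in *Vdr*-/- mice (adjusted p = 0.000131). *Gja1*, which encodes the other main astrocyte connexin, moved far less. It lay at 160, 157 and 135 CPM after PBS and at 187, 199 and 159 after morphine in wild-type mice, groups that overlapped, with a log2 fold change of 0.24 ± 0.10 (adjusted p = 0.299). In *Vdr*-/- mice it rose from 139, 139 and 139 CPM to 179, 174 and 174, a log2 fold change of 0.30 ± 0.04 (adjusted p = 0.00101).

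*Gfap* also rose in the NAc. Wild-type mice had 32.8, 29.6 and 30.5 CPM after PBS and 60.1, 54.3 and 48.4 after morphine, without overlap (log2 fold change 0.78 ± 0.10, adjusted p = 0.0347). *Vdr*-/- mice had 19.0, 30.6 and 21.4 CPM after PBS and 55.7, 50.04 and 70.4 after morphine, also without overlap (1.28 ± 0.15, adjusted p = 0.000383). *Aqp4*, the endfoot water channel, passed the test in *Vdr*-/- mice, where it rose from 52.5, 60.7 and 61.1 CPM to 94.3, 92.3 and 90.5 (0.63 ± 0.06, adjusted p = 0.000174). In wild-type mice it had 77.8, 63.0 and 79.1 CPM after PBS and 119, 107 and 96.4 after morphine, which did not overlap either, with a log2 fold change of 0.53 ± 0.13 (adjusted p = 0.114).

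*S100b* went the opposite way. In *Vdr*-/- mice it fell from 58.5, 61.6 and 58.7 CPM to 51.5, 49.5 and 47.4, a log2 fold change of -0.31 ± 0.05 (adjusted p = 0.00322). In wild-type mice it had 65.3, 66.4 and 60.1 CPM after PBS and 61.9, 54.1 and 49.3 after morphine, groups that overlapped through 1 mouse each, with a log2 fold change of -0.25 ± 0.09 (adjusted p = 0.26).

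Of the glutamate transporters, *Slc1a3* rose in *Vdr*-/- mice, from 528, 495 and 545 CPM to 663, 583 and 625 (log2 fold change 0.21 ± 0.06, adjusted p = 0.0283). That call was lost without morphine mouse 2.0 or 2.2 or without PBS mouse 8, and over the 6 fits that each left out 1 mouse the log2 fold change ran from 0.17 to 0.26. *Slc1a3* had a log2 fold change of 0.22 ± 0.09 in wild-type mice (adjusted p = 0.29). *Slc1a2* was nearly level apart from the library that stood apart. In wild-type PBS mouse 2 it held 1993 CPM, against 3899 and 3848 in the other 2 mice and 3804 to 3837 after morphine. Its log2 fold change in wild-type mice was 0.27 ± 0.27 with that library (adjusted p = 0.620) and -0.07 ± 0.10 without it (adjusted p = 0.776), and in *Vdr*-/- mice it had a log2 fold change of -0.06 (adjusted p = 0.626).

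The remaining members gave no call in the NAc. *Fgfr3*, the growth factor receptor, had a log2 fold change of 0.31 ± 0.10 in *Vdr*-/- mice (adjusted p = 0.0514) and 0.29 ± 0.15 in wild-type mice (adjusted p = 0.38). *Aldh1l1* lay between 40.1 and 50.4 CPM in all 12 NAc libraries, with log2 fold changes of 0.11 in *Vdr*-/- mice (adjusted p = 0.24) and -0.00 in wild-type mice (adjusted p = 0.985). *Sox9* had 26.4, 26.1 and 28.7 CPM after PBS and 21.3, 17.8 and 18.8 after morphine in wild-type mice, without overlap (-0.51 ± 0.10, adjusted p = 0.0759), but a log2 fold change of 0.03 in *Vdr*-/- mice (adjusted p = 0.87).

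In all, 2 of 10 members were called in the NAc of wild-type mice and 6 of 10 in *Vdr*-/- mice, against a background of 0.813% of 15749 genes and 19.1% of 15820 genes. The median log2 fold change of the members was 0.26 in both genotypes, against 0.01 over all genes in wild-type mice and -0.01 in *Vdr*-/- mice. The wild-type count turned on single libraries. Without PBS mouse 2, 5 members were called, namely *Gjb6* (1.16, adjusted p = 0.00302), *Gfap* (0.73, adjusted p = 0.00749), *Aqp4* (0.40, adjusted p = 0.0383), *Fgfr3* (0.44, adjusted p = 0.0472) and, lower, *Sox9* (-0.56, adjusted p = 0.0253), while the genes called over the whole table went from 128 to 627. Without PBS mouse 1 or any single morphine mouse no member was called, and without PBS mouse 3 only *Gjb6*. The number of calls therefore does not show that the genotypes differed, and the test of that difference is given further on.

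**Figure D2:**
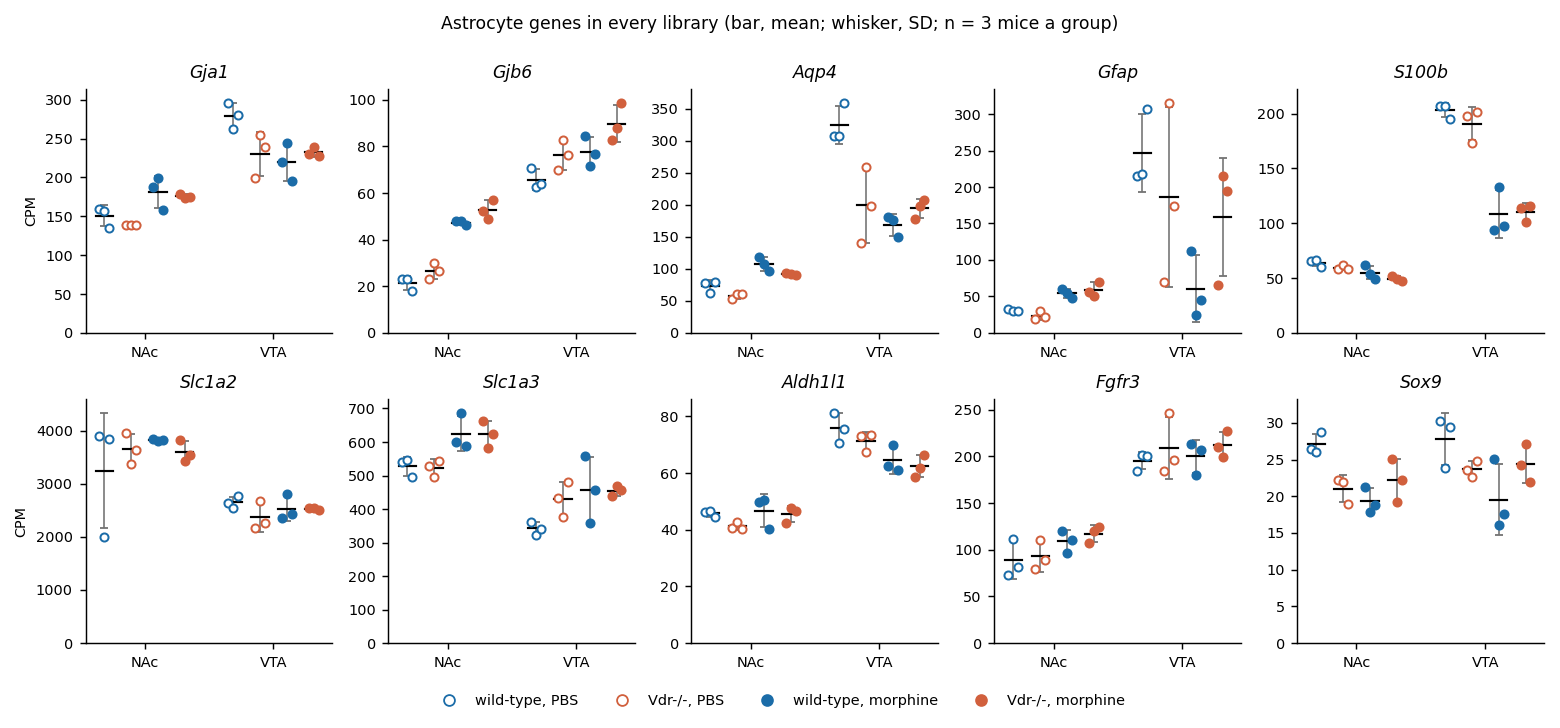
CPM of the 10 astrocyte genes in each of the 24 libraries (y axes from 0, 1 panel a gene), by region (x axis), genotype (colour) and injection (open, PBS; filled, morphine); bars are means and whiskers SD of 3 mice. In the NAc the morphine libraries of *Gjb6* (46.3 to 57.1 CPM) and *Gfap* (48.4 to 70.4) lie above all PBS libraries, whereas in the VTA those of *S100b* (94.1 to 133) lie below all PBS libraries (174 to 207).

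The VTA showed another picture after morphine. *S100b* fell in both genotypes. Wild-type mice had 207, 207 and 196 CPM after PBS and 94.1, 133 and 97.4 after morphine, and *Vdr*-/- mice 198, 174 and 201 and then 114, 101 and 116. No morphine library reached the lowest PBS library. The log2 fold change was -0.99 ± 0.16 in wild-type mice (adjusted p = 0.0298) and -0.86 ± 0.07 in *Vdr*-/- mice (adjusted p = 0.00461). These VTA fits set 3 morphine mice against 2 PBS mice, because the tables used here leave out mouse 3 of the wild-type and mouse 8 of the *Vdr*-/- PBS group, while the CPM of those mice are known from the table that compares the genotypes after PBS.

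*Aqp4* had 308, 307 and 359 CPM after PBS and 181, 177 and 149 after morphine in the VTA of wild-type mice, where it fell with a log2 fold change of -0.90 ± 0.09 (adjusted p = 0.00894). In *Vdr*-/- mice it ran from 141 to 258 CPM after PBS and from 178 to 208 after morphine, ranges that overlapped (0.21 ± 0.13, adjusted p = 0.329). *Gfap* scattered most of all members in this region. Its 3 values were 215, 218 and 308 CPM in wild-type mice given PBS, 113, 24.2 and 45.3 in wild-type mice given morphine, 69.7, 315 and 174 in *Vdr*-/- mice given PBS and 65.7, 215 and 195 in *Vdr*-/- mice given morphine. The wild-type groups did not overlap, but the log2 fold change of -2.15 ± 0.54 missed the threshold (adjusted p = 0.0802). In *Vdr*-/- mice, with overlapping groups, it was 0.34 ± 0.55 without PBS mouse 8 (adjusted p = 0.716). With all 6 libraries, from recovered reads, the direction turned, to -0.16 ± 0.60 (adjusted p = 0.886).

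Neither connexin was called in the VTA in these fits. *Gjb6* had 70.7, 62.4 and 63.9 CPM after PBS and 84.5, 71.7 and 76.8 after morphine in wild-type mice (0.19 ± 0.08, adjusted p = 0.227), and 69.9, 82.7 and 76.3 and then 82.7, 88.0 and 98.7 in *Vdr*-/- mice (0.29 ± 0.08, adjusted p = 0.0627). Its ranges did not overlap between the injections in either genotype, by a narrow margin in each. *Gja1* had 295, 262 and 280 CPM and then 220, 244 and 196 in wild-type mice, without overlap (-0.38 ± 0.11, adjusted p = 0.102). In *Vdr*-/- mice it had 199, 254 and 238 CPM and then 231, 239 and 228 (0.09, adjusted p = 0.461). The connexins thus stood on opposite sides of 0 in the wild-type VTA, but neither passed the test in the fit that lacks a PBS mouse. *Gja1* passed it when all wild-type VTA libraries were used, as given below.

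*Aldh1l1* had a log2 fold change of -0.27 in wild-type mice (adjusted p = 0.165) and -0.24 ± 0.06 in *Vdr*-/- mice (adjusted p = 0.0577), and *Slc1a3* 0.36 ± 0.16 (adjusted p = 0.224) and -0.01 (adjusted p = 0.936). *Slc1a2* had -0.07 (adjusted p = 0.757) and 0.19 (adjusted p = 0.0884), *Fgfr3* 0.02 (adjusted p = 0.923) and 0.15 (adjusted p = 0.176), and *Sox9* -0.52 ± 0.19 (adjusted p = 0.165) and 0.01 (adjusted p = 0.972). These 5 genes gave no call in this region with these libraries.

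Over the VTA, 2 of 10 members were called in wild-type and 1 of 10 in *Vdr*-/- mice, against 3.65% of 16187 genes and 10.02% of 16364 genes. The members' median log2 fold change was -0.32 in wild-type and 0.12 in *Vdr*-/- mice, against -0.01 and -0.00 over all genes. The wild-type count moved with the libraries. With all 6 libraries the count of all genes called rose as well, as given at the end. For the fits without a mouse the share of all genes called is not given here. The counts that follow therefore say little about astrocyte genes. With all 6 libraries, from recovered reads, 4 members were called lower, which were *Gja1* (-0.37, adjusted p = 0.0374), *Gfap* (-2.31, adjusted p = 0.0218), *Aqp4* (-0.96, adjusted p = 0.00179) and *S100b* (-0.95, adjusted p = 0.00767). Without morphine mouse 1.1 there were 6 calls and without mouse 1.0 there were 4, whereas without mouse 1.2 only *Aqp4* was called and without PBS mouse 1 or 2 no member was. The last of these fits hold 1 PBS mouse, assumed to vary like the morphine mice. The *S100b* call in *Vdr*-/- mice was lost without PBS mouse 7, and without morphine mouse 2.0 *Gjb6* was called as well.

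**Figure D3:**
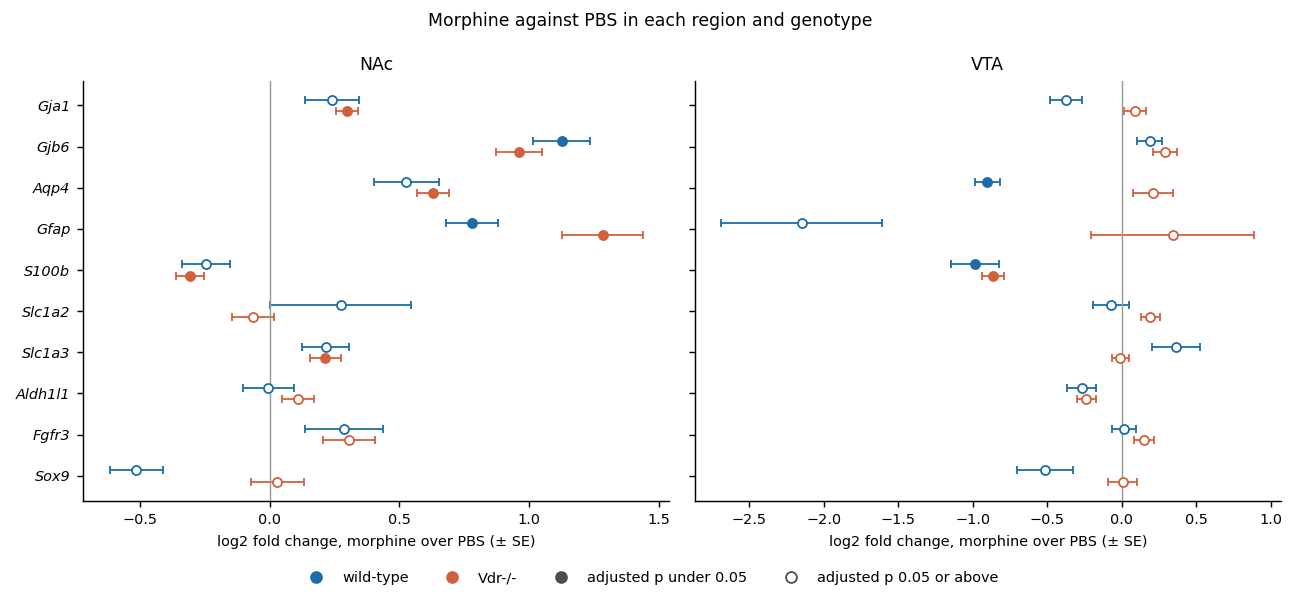
Log2 fold change of morphine over PBS (x axis, with SE) for each astrocyte gene (y axis), for the NAc (left) and the VTA (right); colour gives the genotype, and filled points have an adjusted p under 0.05. *Gjb6* and *Gfap* are filled on the right of 0 for both genotypes in the NAc, and *S100b* is filled on the left of 0 for both genotypes in the VTA.

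Whether the difference between morphine and PBS varied between the 2 regions was tested as an interaction over all 24 libraries, from the NAc minus VTA differences of the 12 mice. It was positive and past the threshold for 7 of 10 members, against a background of 12.4% of 16147 genes, and a positive value means a higher morphine effect in the NAc. The difference of log2 fold changes was 2.25 ± 0.43 for *Gfap* (adjusted p = 0.00647), 1.04 ± 0.16 for *Aqp4* (adjusted p = 0.002), 0.80 ± 0.07 for *Gjb6* (adjusted p = 0.000111) and 0.43 ± 0.08 for *Gja1* (adjusted p = 0.00557). These 4 are the connexins, the endfoot channel and the filament protein. For *S100b* it was 0.58 ± 0.11 (adjusted p = 0.00631), as its log2 fold changes were less negative in the NAc than in the VTA. *Aldh1l1* at 0.26 ± 0.07 (adjusted p = 0.0265) and *Fgfr3* at 0.26 ± 0.08 (adjusted p = 0.0424) passed as well, but the first lost its call without 5 of the 12 mice, each left out in turn, and the second without 10 of the 12. The other 5 kept their calls whichever mouse was left out. *Slc1a2* (0.08), *Slc1a3* (-0.03) and *Sox9* (-0.01) had adjusted p-values of 0.808, 0.891 and 0.978. The members' median was 0.34 and that of all genes 0.00.

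The comparison of *Vdr*-/- with wild-type mice asks whether the receptor's absence moves these genes. No member passed the test in limma in any of the 4 comparisons, where 0.0690% of 15933 genes were called after PBS in the NAc, 0.192% of 15638 after morphine in the NAc, 0.390% of 16425 after PBS in the VTA and 0.0624% of 16029 after morphine in the VTA. At an unadjusted p under 0.05, 3, 2, 5 and 3 members passed, in that order, as did 8.94%, 7.73%, 14.2% and 8.77% of all genes tested. Without the NAc library of wild-type PBS mouse 2, 28 genes in place of 11 were called between genotypes after PBS in the NAc, again with 0 members among them. The edgeR quasi-likelihood test on recovered reads called none either, and DESeq2 called 1, *Slc1a3* after PBS in the VTA (log2 fold change 0.31, adjusted p = 0.0243). DESeq2 also called more of all genes between genotypes than limma, as given at the end. *Gjb6* had a positive value in each of the 4 comparisons, none past the threshold. Its log2 fold change was 0.33 ± 0.13 after PBS (adjusted p = 0.536) and 0.16 ± 0.07 after morphine (adjusted p = 0.603) in the NAc, and 0.20 ± 0.08 after PBS (adjusted p = 0.316) and 0.20 ± 0.08 after morphine (adjusted p = 0.538) in the VTA. The NAc and VTA values come from the same mice.

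*Aqp4* had the lowest log2 fold change of the members after PBS in the VTA, where 141, 258 and 198 CPM in *Vdr*-/- mice stood against 308, 307 and 359 in wild-type mice, without overlap (-0.76 ± 0.19, adjusted p = 0.172). Without *Vdr*-/- PBS mouse 8 it was called (-0.98, adjusted p = 0.0168), together with *Slc1a2* (-0.28, adjusted p = 0.0462) and *Slc1a3* (0.40, adjusted p = 0.0299). The share of all genes called in that fit is not given here, so the number of these calls says little about astrocyte genes. After morphine in the VTA, *Aqp4* had a log2 fold change of 0.20 (adjusted p = 0.568). *Gfap* had -0.66 ± 0.47 after PBS (adjusted p = 0.558) and 1.49 ± 0.59 after morphine (adjusted p = 0.55) in that region. *S100b* kept within -0.14 and 0.04 in the 4 comparisons (adjusted p = 0.464 or above). *Sox9* had -0.34 ± 0.10 after PBS (adjusted p = 0.461) and 0.20 ± 0.11 after morphine (adjusted p = 0.711) in the NAc. In the VTA it had -0.25 ± 0.10 after PBS (adjusted p = 0.314) and 0.34 ± 0.15 after morphine (adjusted p = 0.574).

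The genotypes' morphine effects were also compared directly. No member passed the genotype-by-injection test in either region, and 0% of the 15786 NAc genes and 0% of the 16240 VTA genes did so in limma. At an unadjusted p under 0.05 there were 916 genes in the NAc (5.80%), 2 of them members, and 1739 in the VTA (10.7%), 4 of them members, and edgeR called no member. Those in the NAc were *Sox9* (0.54 ± 0.16) and *Gfap* (0.50 ± 0.23), both at an adjusted p of 0.828. Beside *Aqp4*, those in the VTA were *Sox9* (0.58 ± 0.20, adjusted p = 0.339), *Gja1* (0.38 ± 0.13, adjusted p = 0.353) and *Gfap* (2.14 ± 0.87, adjusted p = 0.42). *Aqp4* in the VTA, whose morphine effect was 0.96 ± 0.23 higher on the log2 scale in *Vdr*-/- than in wild-type mice (adjusted p = 0.283), was called only without *Vdr*-/- PBS mouse 8 (1.18, adjusted p = 0.0257).

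Whether *Gjb6* and *S100b* move with the other astrocyte genes was asked first with ratios of reads inside a library, which no scaling between libraries can change. *Gjb6* was set against *Gja1* and *S100b* against *Aldh1l1*, and 8 differences of the log2 ratio were tested by exact permutation within strata (two-sided, 400 arrangements, smallest p 0.005). In the NAc the log2 ratio of *Gjb6* to *Gja1* lay between -2.92 and -2.22 after PBS and between -2.06 and -1.61 after morphine, without overlap. It was higher after morphine by 0.77 in the NAc (exact p = 0.005, the smallest possible, adjusted p = 0.01), by 0.88 in wild-type and 0.66 in *Vdr*-/- mice. Without the library of wild-type PBS mouse 2 the NAc difference was 0.79 (adjusted p = 0.01). In the VTA the ratio was higher by 0.40 (exact p = 0.005, adjusted p = 0.01), by 0.59 in wild-type and 0.22 in *Vdr*-/- mice. There it ran from -2.13 to -1.51 after PBS and from -1.77 to -1.21 after morphine, with overlap. *Gjb6* therefore gained on *Gja1* with morphine in both regions, although limma called *Gjb6* itself in neither genotype in the VTA. In the wild-type VTA the log2 fold changes were 0.19 for *Gjb6* and -0.38 for *Gja1*, so the gain there included a lower *Gja1*.

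The same ratio was higher in *Vdr*-/- than in wild-type mice. The log2 difference was 0.31 in the NAc (exact p = 0.015, adjusted p = 0.024), 0.42 after PBS and 0.20 after morphine, and 0.32 without wild-type PBS mouse 2 (adjusted p = 0.04). In the VTA it was 0.31 (exact p = 0.03, adjusted p = 0.04), 0.50 after PBS and 0.13 after morphine. After PBS the reads of *Gjb6* came to 0.142 of those of *Gja1* in the NAc of wild-type mice and 0.191 in *Vdr*-/- mice, and to 0.235 and 0.332 in the VTA. The VTA difference did not pass without wild-type mouse 1.1 (0.24, adjusted p = 0.0733) or without *Vdr*-/- mouse 2.2 (0.27, adjusted p = 0.0667). Both genes entered this ratio. After PBS in the VTA the limma log2 fold change between genotypes was -0.30 ± 0.09 for *Gja1* (adjusted p = 0.213) and 0.20 for *Gjb6*. That of *Gja1* was 0.08 after morphine in the VTA, and -0.09 after PBS and -0.03 after morphine in the NAc.

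*S100b* lost reads relative to *Aldh1l1* after morphine. The log2 ratio lay between 0.44 and 0.54 after PBS and between 0.02 and 0.31 after morphine in the NAc, a difference of -0.33 (exact p = 0.005, adjusted p = 0.01) that was -0.32 without wild-type PBS mouse 2. In the VTA it lay between 1.35 and 1.55 after PBS and between 0.59 and 0.96 after morphine, a difference of -0.65 (exact p = 0.005, adjusted p = 0.01). Neither range overlapped. Between the genotypes it differed by -0.03 in the NAc (exact p = 0.635, adjusted p = 0.635) and by 0.04 in the VTA (exact p = 0.53, adjusted p = 0.606).

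**Figure D4:**
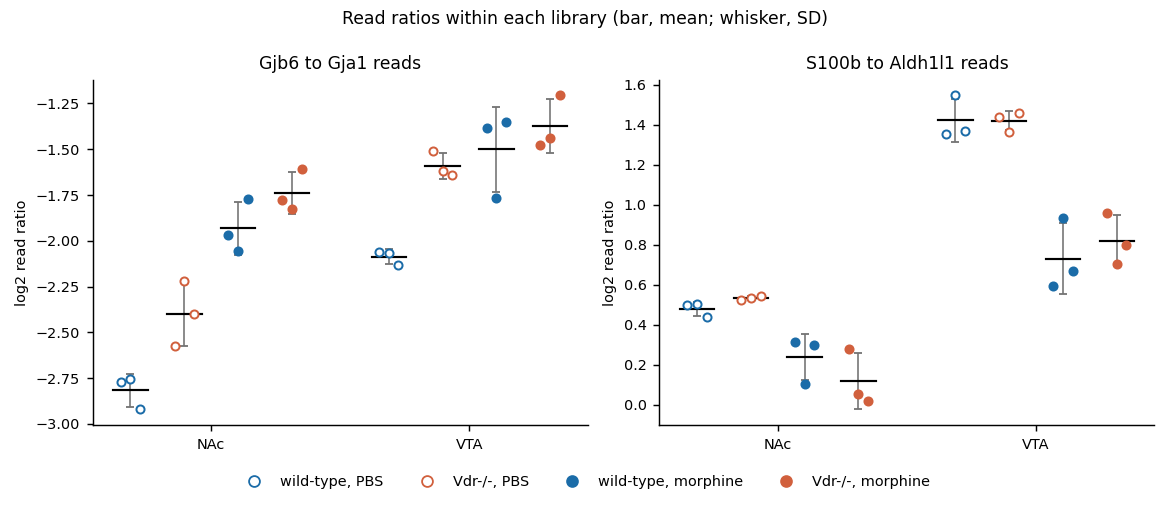
Log2 ratio of *Gjb6* to *Gja1* reads (left) and of *S100b* to *Aldh1l1* reads (right) in each library (y axes), by region (x axis), genotype (colour) and injection (open, PBS; filled, morphine); bars are means and whiskers SD of 3 mice. The *Gjb6* ratio is higher after morphine, and in the NAc its PBS and morphine libraries do not overlap; the *S100b* ratio is lower after morphine in both regions.

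The second view used the deviations of log2(CPM + 1) from the group means, which leave out region, genotype and injection, over the 24 libraries. These points share mice between the regions and each library its depth, so the correlations are descriptions. *Gjb6* varied with most members, with a Pearson r of 0.60 to *Gfap*, 0.53 to *Fgfr3*, 0.41 to *Gja1*, 0.32 to *Slc1a3* and 0.31 to *Aqp4*, and a median of 0.31 over the other 9. Its r was positive with 6 of the 9 in the NAc (median 0.29) and with 8 in the VTA (median 0.37). *S100b* varied with *Aldh1l1* (r = 0.59) and *Gja1* (r = 0.36) over the 24 libraries and had negative values with the other 7, down to -0.54 with *Gfap*, at a median of -0.09. Over the 12 NAc libraries the r of *S100b* was positive with 8 of the 9 members (median 0.32), and over the 12 VTA libraries with 3 of the 9 (median -0.45). Without the NAc library of wild-type PBS mouse 2 the NAc medians were 0.32 for *Gjb6* and 0.37 for *S100b*, and those over 23 libraries 0.31 and -0.13. Between *Gjb6* and *S100b* themselves r was -0.09 over 24 libraries, 0.38 over the 12 of the NAc and -0.45 over the 12 of the VTA.

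By this measure the genes most like *Gjb6*, among 11827 with a mean of at least 5 CPM, were *Zfp422* (r = 0.86), *Sdc4* (r = 0.86), *Syngr2*, *Hspb8* and *Cd164* (each r = 0.82). Without the NAc library of wild-type PBS mouse 2 *Zfp422*, *Sdc4* and *Syngr2* were still among the 5, with *Nipbl* and *Fam208a* in the other places. *Sdc4* encodes the cell-surface proteoglycan syndecan 4. Among those most like *S100b* were *Tmem88b* (r = 0.88), *Rgs8* (r = 0.87), *Kif1c* and *Gramd3* (each r = 0.85). *Kif1c* encodes a kinesin motor and *Rgs8* a regulator of G protein signaling. Without the library that stood apart, *Tmem88b* and *Rgs8* were still among the 5, with *Tmem63a*, *Ndufa10* and *Elovl1* in the other places.

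Markers of other cells moved beside the astrocyte genes. The summed level of 10 oligodendrocyte markers, none of them at 0, ran from 12740 to 13938 CPM (median 13152) in the 6 PBS libraries of the VTA and from 6596 to 10870 (median 8948) in the 6 morphine libraries, without overlap. In the NAc it ran from 4499 to 6545 (median 4820) after PBS and from 4069 to 5304 (median 4315) after morphine. Of these 10 markers, 9 were called lower after morphine in the VTA and 6 in the NAc of *Vdr*-/- mice (10.02% and 19.1% of all genes were called in either direction), and none in either region of wild-type mice by limma. There all 10 had negative log2 fold changes, with medians of -0.79 in the VTA and -0.27 in the NAc. At an unadjusted p under 0.05, 10 passed in the VTA and 3 in the NAc of wild-type mice, as did 24.2% and 16.6% of all genes. DESeq2 called 7 and 1 and edgeR none. In both regions DESeq2 also called more of all genes than limma, as given at the end. Within groups, *S100b* followed this sum with r = 0.74 over 24 libraries, 0.93 over the 12 VTA libraries and 0.28 over the 12 NAc libraries. For *Gjb6* r to this sum was 0.41 in the NAc and -0.48 in the VTA, and -0.07 over all 24. To the sum of 8 neuronal markers it was -0.82 in the NAc and -0.63 in the VTA, and that sum ran from 5665 to 7166 CPM after PBS and from 6475 to 6991 after morphine in the NAc. The part of oligodendrocyte RNA in the *S100b* values was not tested.

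The leptomeninges, the membranes on the brain surface, share *Gja1* and lie against a *Gfap*-rich astrocyte border. The sum of 13 leptomeningeal and fibroblast markers ran from 113 to 179 CPM (median 137) after PBS and from 187 to 309 (median 254) after morphine in the NAc, without overlap. *Prg4* was the marker at 0 in the NAc of PBS mice. In the NAc of *Vdr*-/- mice 12 of the 13 rose with morphine (median log2 fold change 1.32), where 19.1% of all genes were called. In wild-type mice all 12 tested had positive values (median 0.80), of which 2 were called, against 0.813% of all genes. At an unadjusted p under 0.05, 7 of them passed, as did 16.6% of all genes. In the VTA of wild-type mice the sums had a median of 653 after PBS and 381 after morphine, with 0 of 13 markers positive (median log2 fold change -0.82). The medians of *Vdr*-/- mice were 567 and 827, with 11 of 13 positive (median 0.50), and after morphine all 13 were higher in value in *Vdr*-/- than in wild-type mice (median 1.07). The sums of PBS and morphine mice overlapped in both genotypes. None of these VTA markers was called by limma, edgeR or DESeq2. In these 3 comparisons 4, 0 and 4 of them had an unadjusted p under 0.05, as did 24.2%, 29.8% and 8.77% of all genes. *Gfap* itself had log2 fold changes of -2.15, 0.34 and 1.49 there, none of them called. *Gfap* followed this sum within groups with r = 0.63 over 24 libraries, 0.78 in the NAc and 0.62 in the VTA, and *Gjb6* with r = 0.52. The part of surface tissue in the *Gfap* and *Gjb6* values of either region was not tested.

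**Figure D5:**
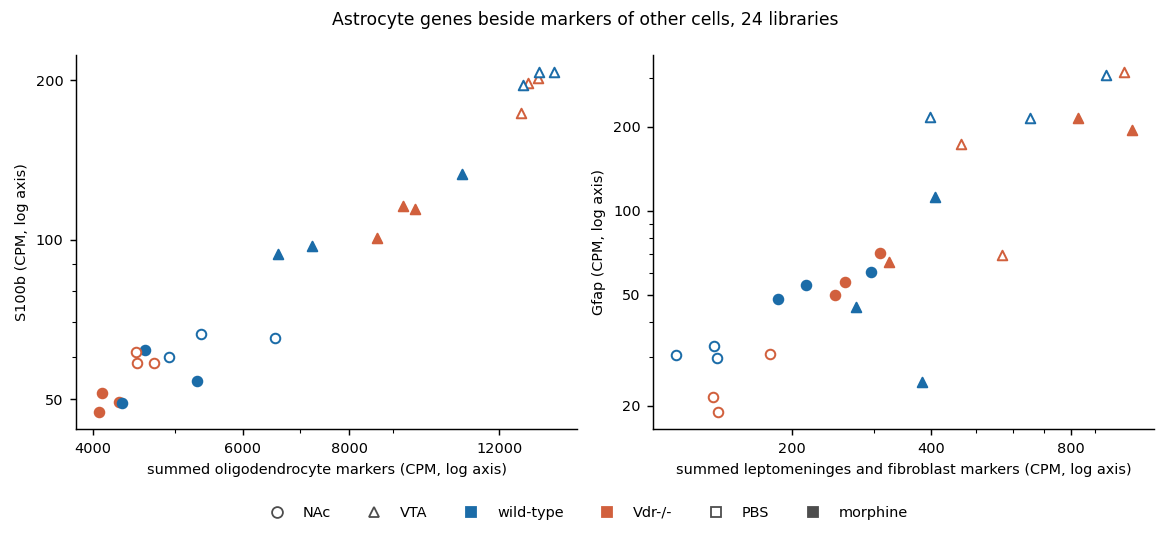
*S100b* against the summed oligodendrocyte markers (left) and *Gfap* against the summed leptomeningeal and fibroblast markers (right), in CPM on log axes, for the 24 libraries; circles are NAc, triangles VTA, colour gives the genotype, open points are PBS and filled points morphine. The VTA morphine libraries lie below the VTA PBS libraries on both axes of the left panel (94.1 to 133 against 174 to 207 CPM of *S100b*).

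Microglial markers, 8 in number, lay lower after morphine in both regions, with sums of 265 to 316 CPM after PBS and 219 to 243 after morphine in the NAc and 227 to 323 and then 160 to 200 in the VTA. Of the 8, 5 were called lower in the NAc and 3 in the VTA of *Vdr*-/- mice, where 19.1% and 10.02% of all genes were called. In wild-type mice 1 and 5 were, where 0.813% and 3.65% of all genes were called. Ependymal markers ran from 20.6 to 38.8 CPM after PBS and from 22.8 to 50.8 after morphine in the VTA. In the VTA of wild-type mice 2 of 7 were called higher, beside 3.65% of all genes called. In the NAc of *Vdr*-/- mice 3 of 6 tested were called higher, beside 19.1% of all genes called. *Vdr*-/- mouse 2.1 carried the highest choroid plexus sum of the VTA libraries, 133.5 CPM against a median of 24.6 in the 6 morphine libraries. Of 6 pericyte and smooth muscle markers 4 were higher with morphine in the NAc of *Vdr*-/- mice and of 5 oligodendrocyte precursor markers 2 were, beside 19.1% of all genes, and of 6 endothelial markers 1 was lower in their VTA, beside 10.02% of all genes.

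A wider set of 46 astrocyte genes, without the 10 members, put these values in context. It had 19 genes higher and 4 lower after morphine in the NAc of *Vdr*-/- mice, at a median log2 fold change of 0.16, where 19.1% of all genes were called. In the VTA of *Vdr*-/- mice 6 were higher and 18 lower, at a median of -0.19, where 10.02% of all genes were called. In wild-type mice none was called by limma in the NAc (median 0.15) or the VTA (median -0.23). At an unadjusted p under 0.05, 14 passed in the NAc and 17 in the VTA of wild-type mice, as did 16.6% and 24.2% of all genes. DESeq2 called 8 in each, and edgeR called 1 in the NAc and none in the VTA. DESeq2 also called more of all genes than limma in both regions, as given at the end. Its counts cannot be read against the limma shares. In the region-by-injection test 29 were positive and 1 negative, at a median of 0.35, beside 12.4% of all genes called in either direction. Between the genotypes none was called by limma or edgeR, and DESeq2 called 1 after PBS in the VTA. Between 3 and 10 passed an unadjusted p under 0.05 in the 4 genotype comparisons, as did 7.73% to 14.2% of all genes.

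Smaller groups were listed by role. With morphine 19.1% of all genes were called in the NAc and 10.02% in the VTA of *Vdr*-/- mice, and 3.65% in the VTA of wild-type mice. A count near these shares says little about a role. Of 8 other connexin genes 1, *Gjb2*, which encodes connexin 26 of astrocytes and leptomeninges, rose in the NAc of *Vdr*-/- mice (log2 fold change 0.84). *Gjb1*, the oligodendrocyte connexin 32, fell in the VTA of wild-type (-1.20, adjusted p = 0.0432) and *Vdr*-/- mice (-0.86), where *Gjc3* (-0.49) was also among the 4 of 7 tested that fell. Of 13 endfoot anchoring and potassium buffering genes 5 rose in the NAc of *Vdr*-/- mice, among them the potassium channel *Kcnj10* (0.47) and *Mlc1* (0.30), and 4 fell in their VTA. Of 10 genes of glutamate and GABA transport and metabolism 5 rose in the NAc of *Vdr*-/- mice, while 1 rose and 2 fell in the VTA. Those that rose in the NAc included the cystine-glutamate exchanger *Slc7a11* (0.76), the GABA transporter *Slc6a11* (0.67) and *Glud1* (0.33).

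Of 11 FGF receptor and feedback genes, the list closest to *Fgfr3*, 6 rose in the NAc of *Vdr*-/- mice, beside 19.1% of all genes called. They were led by the feedback inhibitor *Spry4* (1.02), with *Fgf1* (0.53) and *Spred1* (0.33). By contrast *Etv5* (-0.92) and *Fgfr2* (-0.79) fell in the VTA of wild-type mice, beside 3.65% of all genes called. Of the genes seen in reactive astrocytes, 24 of 32 were tested there, and 7 rose in the NAc of *Vdr*-/- mice, including *Serping1* (1.14), *Amigo2* (0.81) and the filament gene *Vim* (0.68). In the VTA of *Vdr*-/- mice 3 rose, *Cd44* (1.69), *Hspb1* (1.01) and *Amigo2* (0.51), and 2 fell, beside 10.02% of all genes called. Among 12 transcription factors of astrocytes, the list closest to *Sox9*, 3 rose and 1 fell in the NAc of *Vdr*-/- mice, beside 19.1% of all genes called. *Zbtb20* was lower in *Vdr*-/- than in wild-type mice after morphine in the NAc (-0.43, adjusted p = 0.00482), the only limma call between genotypes in these lists of astrocyte genes.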

How the data were processed

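The mRNA of frozen micropunches was sequenced from strand-specific libraries in paired reads. The authors trimmed adapters with Trimmomatic 0.36, mapped with STAR 2.4.2a to GRCm38 with the GENCODE mouse annotation and counted reads per gene. The authors deposited signal in 8 tables of 2 groups each, as read counts divided by the DESeq2 size factors of the table. Dividing by the value that 1 read is worth gave whole numbers for 100% of the values in each of the 46 library columns (tolerance 0.01). The reads recovered in this way agreed exactly between tables for the 22 libraries held by 2 of them. The size factors change with the libraries of a table, so a gene's value differs between tables while its reads do not.

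Groups came from the sample labels. The filter kept genes averaging 10 or more in a table, and limma 3.58.1 was fitted to log2(value + 1) (trend, two-sided, Benjamini-Hochberg, threshold 0.05), the low values being where the added 1 understates a change. Since the values are not counts, limma was the main test, and edgeR 4.0.16 and DESeq2 1.42.0 on the recovered reads were alternatives. Region and interaction tests used recovered reads scaled together by the median of ratios, with mouse as a block in the tests across regions. The NAc and VTA deviations of a mouse correlated at -0.07 to 0.22 (median 0.05, 12 mice), and that pairing comes from the labels. CPM are reads per 1000000 reads on genes. Depth, 9328726 to 30184426 reads per library, left at least 206 reads for each member. Of 24 replicate pairs none was a duplicate (chi-square per gene 3.99 to 34.4).

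Members and gene lists were chosen with earlier results of these data known. Genes outside the members were named by at most 3 per list and comparison with the smallest adjusted p among those called, and by the 5 most like *Gjb6* and *S100b*, apart from some that are not reported here. The members of each list and the marker lists came from general knowledge. Scripts were tested on simulated data. R 4.3.3, Python 3.11.15, numpy 2.4.6 and pandas 2.3.3 were used.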

Additional observations from a re-analysis of the deposited data

Results flagged for a closer look

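The morphine effect differed between the NAc and the VTA for 7 members, by the test of the difference over the 12 mice. The difference of the log2 fold changes, NAc minus VTA, was 0.80 for *Gjb6*, 0.43 for *Gja1*, 2.25 for *Gfap*, 1.04 for *Aqp4*, 0.26 for *Aldh1l1*, 0.58 for *S100b* and 0.26 for *Fgfr3*. These genes did not share a direction within each region, since *Gjb6* had positive fold changes in both regions and *S100b* negative ones in both. The marker sums of oligodendrocytes and leptomeninges moved with the injection as well. *Slc6a3* was lower in median in the VTA morphine libraries and *Drd1* in the NAc morphine libraries. The part of these in the 7 differences was not tested.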

How the results depend on the processing

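The count of called members moved by over 1.5 times in 4 comparisons with other methods. It moved less in the NAc of *Vdr*-/- mice after morphine (5 to 7 in place of 6) and for region by injection (6 in place of 7 with limma without trend). With limma without trend it was 1 in the NAc of wild-type mice after morphine, and 0 in the VTA of both genotypes. With DESeq2 it was 4 in the NAc of wild-type mice, 3 in the VTA of *Vdr*-/- mice and 1 between genotypes after PBS in the VTA. With all 6 libraries it was 4 in the VTA of wild-type mice. Leaving out 1 library gave 0 to 5 calls in the NAc and 0 to 6 in the VTA of wild-type mice, 5 to 6 and 0 to 2 in *Vdr*-/- mice, 0 to 3 between genotypes after PBS in the VTA and 0 to 1 for the genotype-by-injection test in the VTA (the 1 without *Vdr*-/- PBS mouse 8). Leaving out 1 mouse gave 9 to 9 for the regions and 5 to 7 for region by injection. The genotype difference of the *Gjb6* to *Gja1* ratio in the VTA ran from 0.24 to 0.35. The cause of these moves was not tested. Of 940 values of single members with a library or mouse left out, 33 lost and 15 gained a call, and of 750 under the other settings 6 lost and 10 gained one. No called value changed sign.

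Without mouse as a block, 9 members were called between the regions as with it. The last digit of the morphine mouse numbers is only a number, with correlations of -0.15 to 0.05 in the NAc and -0.27 to -0.23 in the VTA. As a block it left 0 members called in both morphine genotype comparisons, and 19 in place of 30 and 4 in place of 10 of all genes. No sample correlated above 0.1 with the other of its digit.

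The counts of all genes differed by over 1.5 times with DESeq2 between genotypes (63 in place of 11, 51 in place of 30, 290 in place of 64 and 95 in place of 10) and after morphine in wild-type mice (493 in place of 128 in the NAc, 1358 in place of 591 in the VTA). Limma without trend called 10, 17 and 5 in place of 30, 64 and 10 between genotypes, and 27, 1237, 56 and 0 in place of 128, 3018, 591 and 1639 after morphine. The VTA of wild-type mice gave 2001 with all 6 libraries. DESeq2 was not run for the region and interaction tests, and 3 mice a group limit every count.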
